A study of Mus musculus with 12 samples.

Results

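Potassium channel subunit genes were followed through the first weeks after birth in RNA-seq of cortical nuclei from male mouse pups. A gene was taken when its symbol was Kcn followed by letters and a number, when it was listed at all 3 ages, and when it reached 1 CPM (a read count scaled to the size of its library) in at least 4 of the 12 libraries. Of 92 such names in any table, 89 were listed at all ages and 75 met the level minimum, out of 15713 genes of every kind that did. These 75 genes encode pore-forming subunits (55), electrically silent subunits that assemble with other pores (9) and auxiliary subunits (11). The names below the minimum were Kcne1, Kcne3, Kcnj1, Kcnj13, Kcnj14, Kcnj15, Kcnk5, Kcnk7, Kcnk15, Kcnk18, Kcnmb1, Kcnmb3, Kcnn4 and Kcnv2, and Kcna7, Kcna10 and Kcnk16 were not listed at P0.

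All pups were male and carried the genotype CAG-Sun1/sfGFP +/-; NEX-Cre +/-, and the labels group them by age: postnatal day 0 (P0), 14 (P14) and 28 (P28), with 4 libraries each. The descriptions of the P0 and P14 libraries carry the letters WT, and those of the P28 libraries, named by another scheme, do not. Each age also has a table of its own, so age and library set cannot be told apart. The former allele makes a tagged nuclear membrane protein from a ubiquitous promoter once Cre has acted, and NEX-Cre drives Cre from the locus of Neurod6, a gene of excitatory forebrain neurons. Nuclei that had seen Cre were pulled down by the tag (INTACT), and polyadenylated RNA was sequenced, so the values describe nuclear RNA. The labels call the 4 libraries of an age biological replicates, and by their descriptions P0 replicate 1 and P28 replicate 4 are merged.

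Potassium channels let potassium leave the cell and thereby set the resting potential, end the action potential and limit how often a neuron fires. Voltage-gated (Kv) channels open on depolarisation, inward rectifiers (Kir) and tandem-pore (K2P) channels hold the resting potential, and the BK, SK and sodium-activated channels respond to calcium or sodium inside the cell. In the rodent cortex the firing of pyramidal neurons becomes faster and action potentials become narrower over the weeks after birth, and the repertoire of potassium channels is one of the features known to change in that time.

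Levels are given as scaled CPM, that is CPM over the genes shared by all tables after a further factor that puts the 12 libraries on a common scale. Reads in these genes ranged between 13195973 and 16599217 per library at P0, between 25486861 and 33611769 at P14, and between 21569262 and 31215435 at P28, so that 3 reads are worth 0.0858 to 0.236 scaled CPM. One library stood apart: P14 replicate 2 had a mean correlation with its own age of 0.951, against at least 0.976 for the other 11 libraries. It was the lowest of the 4 P14 libraries for 57 of the 75 channel genes and the highest for 12, and for 20 it was under 0.5 times the mean of the other 3. It was also the lowest P14 library in the summed level of 7 of 9 cell type marker lists. Counts are therefore given with and without it.

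The excitatory label was checked against markers fixed with the design. Summed excitatory markers were between 1387 and 1583 at P0, between 1266 and 2176 at P14 and between 2375 and 2489.99 at P28, and Slc17a7, the vesicular glutamate transporter of cortical pyramidal neurons, was present in every library. Of the 7 excitatory markers 1 (Slc17a7) rose and 5 fell from P0 to P14. In that step 34.4% of all genes rose and 34.5% fell, the background for each marker count from P0 to P14. Markers of other cells were present too, and several moved with age. Summed inhibitory markers were between 406 and 424 at P0, between 225 and 362 at P14 and between 298 and 390.2 at P28. Oligodendrocyte markers were between 93.5 and 102 at P0, between 987 and 2417 at P14 and between 1808 and 2936 at P28, and all 8 rose from P0 to P14, with Opalin at 0 in every P0 library. Endothelial markers were between 431 and 683 at P0, between 23.6 and 81.1 at P14 and between 14.1 and 47.8 at P28, and 5 of 6 fell in that step. Pericyte and mural markers were between 454 and 836 at P0, between 52.7 and 146 at P14 and between 31.3 and 65.9 at P28, microglial markers between 19.3 and 28.6 at P0, between 36.6 and 75.9 at P14 and between 53.2 and 66.3 at P28, astrocyte markers between 397 and 565 at P0, between 442 and 1180.3 at P14 and between 609.9 and 764 at P28 and progenitor markers between 182 and 244 at P0, between 31.6 and 67.8 at P14 and between 23.1 and 27.6 at P28. The part that a changing mix of nuclei has in any channel result was not tested, and in a bulk sample fewer cells of a type and less RNA per cell cannot be told apart.

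Most channel genes rose between P0 and P14. By limma over all genes, 49 of the 75 rose and 11 fell at an adjusted p under 0.05, while 34.4% of all genes tested rose and 34.5% fell (69.0% in either direction). The median log2 fold change was 0.86 for the channel genes and 0.01 for all genes. Between P14 and P28, 17 rose and 1 fell, against 9.23% and 9.1% of all genes. Here the medians were 0.29 and −0.01. On the deposited values without a common scale, the split of this step was 10 higher and 7 lower, with the median of all genes at −0.20. On those values 671 of all 15713 genes were higher and 3857 lower. From P0 to P28, 52 rose and 8 fell, against backgrounds of 35.7% and 35.5% (71.2% in either direction), with medians of 1.28 and 0.01. The same shares of all genes are the background for each count by subfamily given below.

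Without P14 replicate 2 the counts were 55 and 10 for the step from P0 to P14, 17 and 6 for the step from P14 to P28, and 56 and 10 from P0 to P28. Over all 15713 genes the counts without that library were, in the same order, 5736 and 5759, 1970 and 2096, and 6199 and 6107. The 1 channel gene that fell from P14 to P28 thus became 6 when that library was left out. Over all genes, the number that fell in that step went from 1430 to 2096. Without P28 replicate 1, and equally without P28 replicate 2, 11 channel genes rose from P14 to P28. The 4 libraries of P14 all lay above the 4 of P0 for 38 channel genes and all below for 9, where 29.2% and 30.1% of all genes did so. For P28 against P14 these numbers were 23 and 1, against 14.2% and 13.2%, and for P28 against P0 they were 54 and 8, against 35.6% and 35.7%. The level minimum admits some genes through a single age: Kcne4 and Kcnh8 reached it at P0 alone, and Kcng2, Kcng4 and Kcnk13 in no P0 library. Kcnj8 and Kcnq1 each reached 1 CPM in 4 libraries at P0, 2 at P14 and 0 at P28, and so were admitted through P0. For the 60 genes at 1 CPM or more in every library, 42 rose and 5 fell from P0 to P14, and 15 rose and 1 fell from P14 to P28. The shares over all genes at that stricter level were not taken, so these counts have no matching background.

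**Figure D1:**
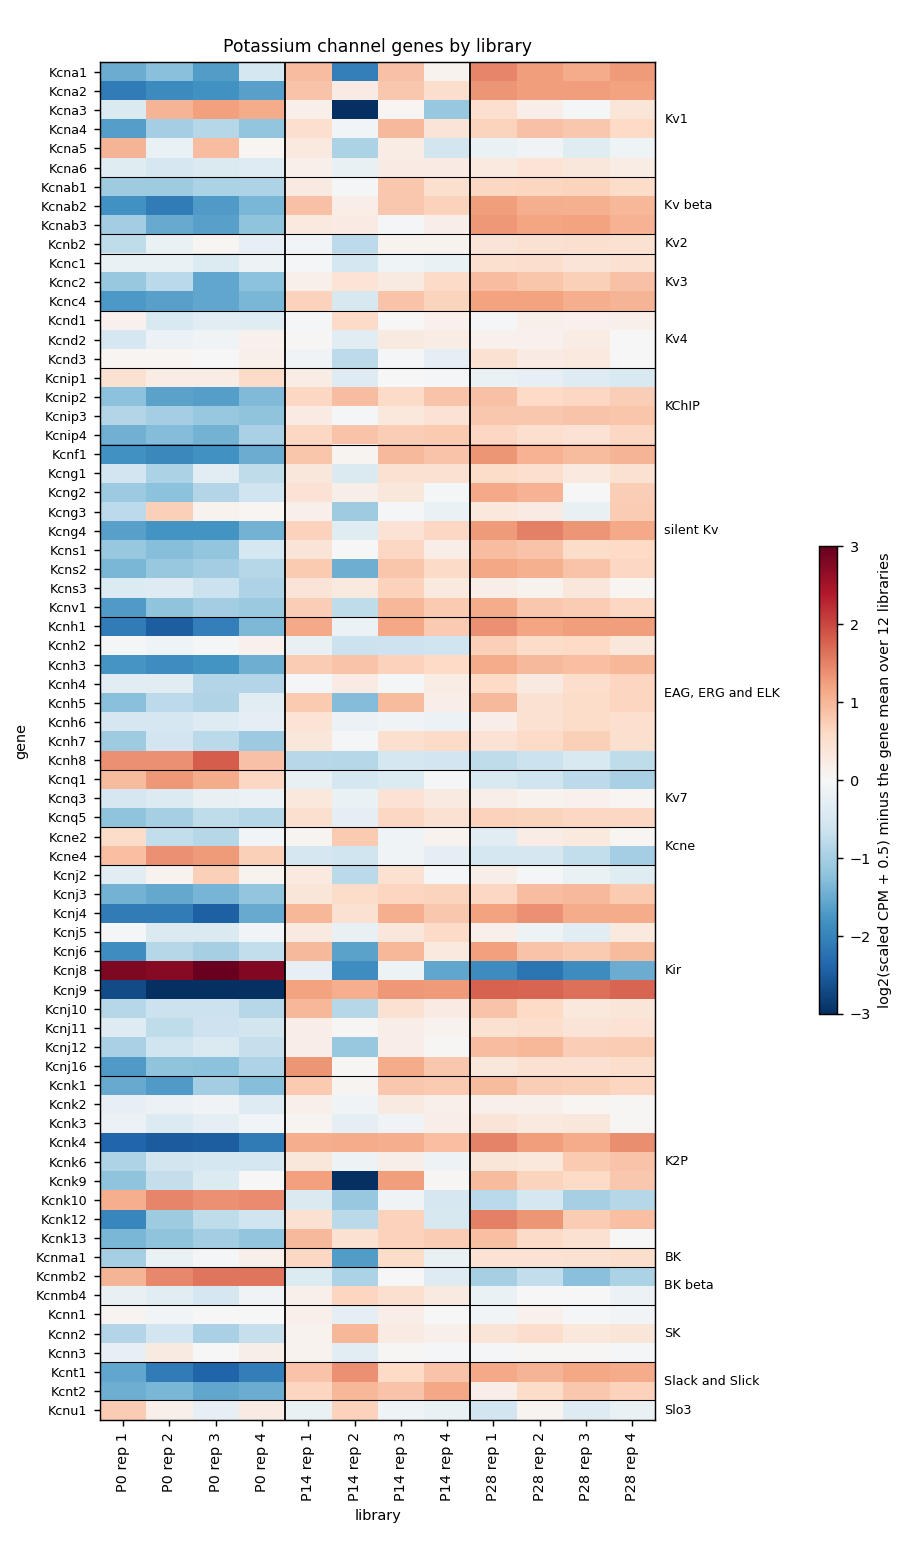
Level of 71 of the 75 channel genes in each of the 12 libraries, as the difference of log2(scaled CPM + 0.5) from the gene's own mean over all libraries; rows are genes grouped by subfamily and columns are libraries grouped by age. Most rows turn from low at P0 to high at P14 and P28, a few such as Kcnj8, Kcnk10 and Kcnh8 run the other way, and P14 replicate 2 is paler than its neighbours in many rows.

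**Figure D2:**
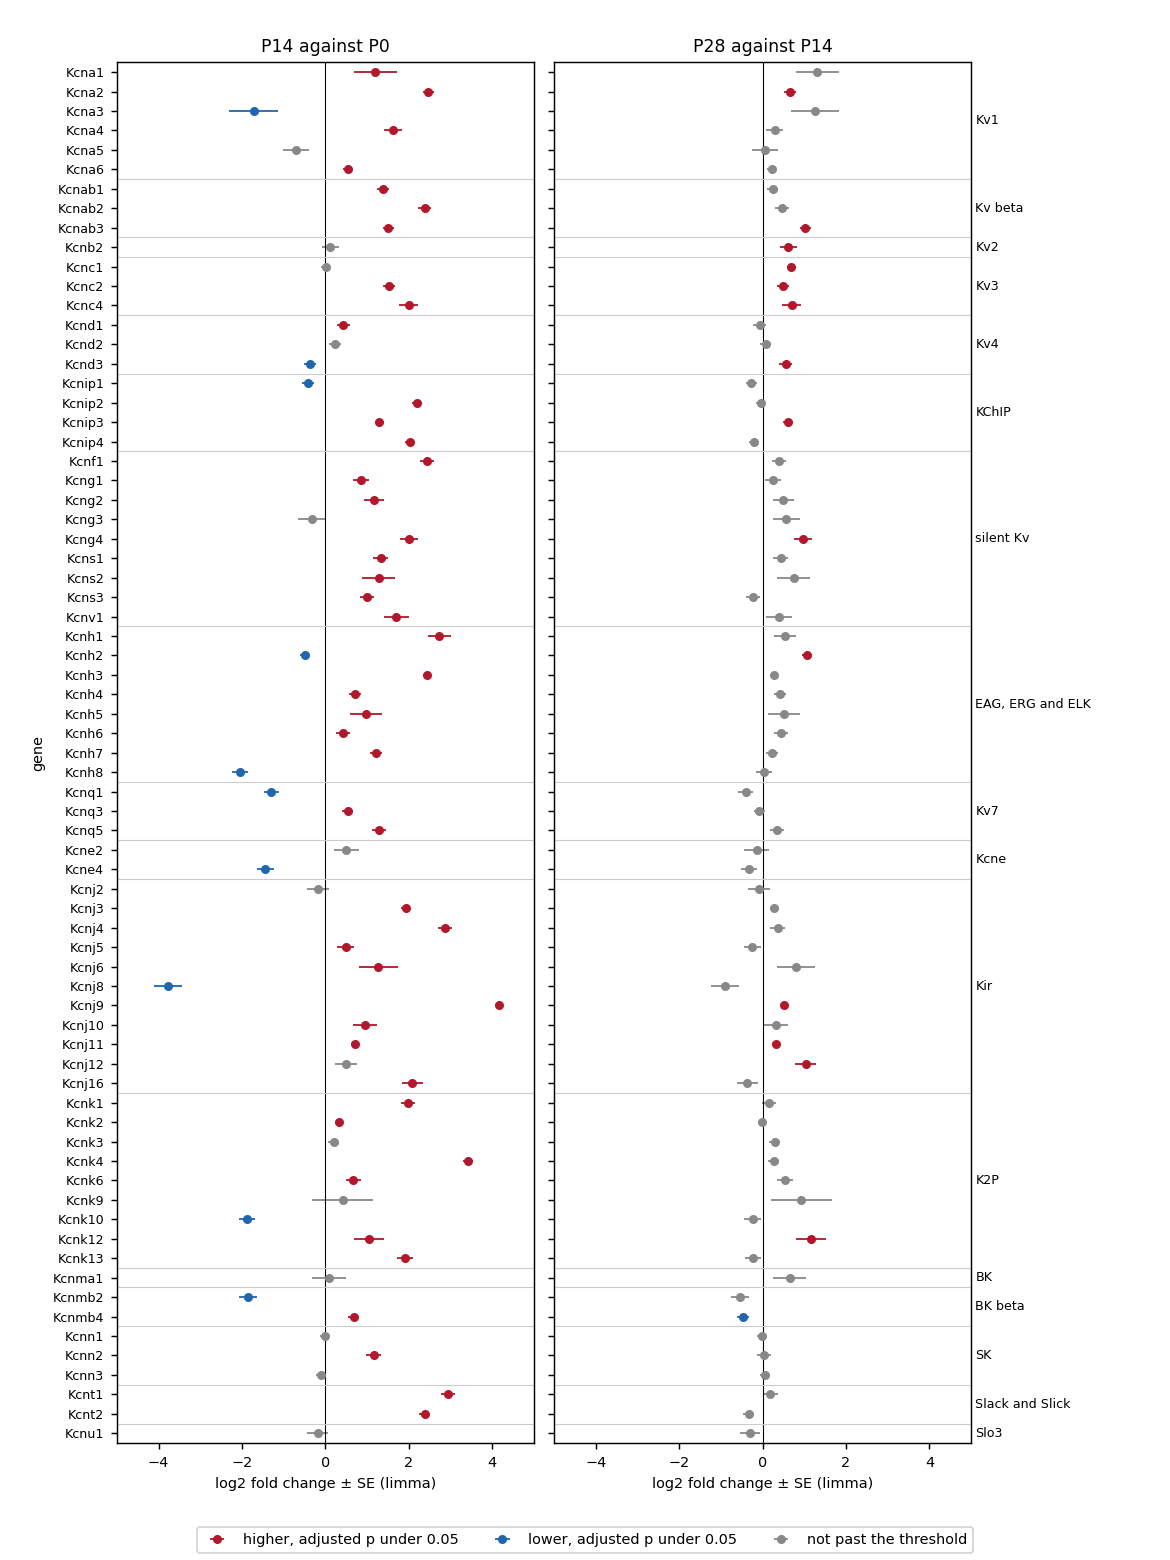
Log2 fold change with its standard error for the same 71 genes, P14 against P0 on the left and P28 against P14 on the right, coloured by the call of limma at an adjusted p of 0.05. The left panel holds 47 higher and 10 lower calls and spans −3.77 to 4.16, and the right panel holds 14 and 1; the lower calls of Kcnd3 and Kcnip1 change sign on the deposited values without a common scale.

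Inward rectifiers included both the highest and the lowest log2 fold change from P0 to P14 on the scale with 0.5 added, Kcnj9 and Kcnj8. Of 11 Kir genes, 8 rose from P0 to P14, 1 fell and 2 did not pass the test (9 and 1 without P14 replicate 2), and 3 rose from P14 to P28. Kcnj9, which encodes GIRK3, a subunit of the channels opened by G protein-coupled receptors, was at 14.1, 10.4, 11.2 and 11.2 at P0, 216, 197, 228 and 225 at P14, and 316, 311, 292 and 314 at P28. All P14 libraries lay above all P0 libraries and all P28 libraries above those, with no overlap (log2 fold change 4.16 ± 0.10, adjusted p = 3.41e-12 for P14 against P0; log2 fold change 0.51 ± 0.10, adjusted p = 0.00334 for P28 against P14). With edgeR and DESeq2 the estimate for Kcng4, which was at or near 0 at P0, was higher than that for Kcnj9. Kcnj3, the GIRK1 subunit, was at 35.7, 32.7, 36 and 41.9 at P0, 122, 139.8, 149.9 and 152 at P14, and 147, 183, 187 and 164 at P28, and rose in the earlier step (log2 fold change 1.93 ± 0.11, adjusted p = 3.97e-09). Kcnj6, the GIRK2 subunit, was at 2.05, 4.59, 4.09 and 5.01 at P0, 17.5, 2.52, 17.9 and 10.8 at P14, and 21.2, 16.3, 15.4 and 17.2 at P28. P14 replicate 2 lay among the P0 libraries, and its rise (log2 fold change 1.28 ± 0.46, adjusted p = 0.0251) was 1.87, adjusted p = 6.27e-06, without that library (called in 19 of 25 alternative settings, adjusted p from 6.27e-06 to 0.0969). Kcnj5, GIRK4, stayed at or below 2.55 scaled CPM in every library (called in 12 of 24 alternative settings, adjusted p from 0.00222 to 0.144 for its rise from P0 to P14).

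Per kilobase of each gene's longest annotated transcript, which allows levels of different genes to be set side by side, the 4 GIRK genes together had 12 ± 0.932 at P0, 97.1 ± 7.18 at P14 and 132 ± 2.32 at P28 (scaled CPM per kb, mean ± SD, n = 4). Kcnj9 made up 30% ± 4.09 at P0, 68.3% ± 1.08 at P14 and 71.4% ± 2.13 at P28 of that sum. Kcnj3 made up 58.6% ± 1.93 at P0, 27.9% ± 2.39 at P14 and 24.7% ± 2.68 at P28. The leading GIRK transcript was thus Kcnj3 at P0 and Kcnj9 at both later ages. Kcnj4, a strong classical inward rectifier of forebrain neurons, rose as well, with means of 17.4 ± 5.15 at P0, 129 ± 24 at P14 and 164 ± 14.1 at P28 (log2 fold change 2.87 ± 0.18, adjusted p = 1.24e-08). Kcnj12, of the same classical group, was at 2.89, 3.94, 4.48 and 3.66 at P0, 7.19, 2.55, 7.2 and 6.33 at P14, and 12.2, 12.8, 10.8 and 10.8 at P28. Of its 2 steps it passed the test in the later (log2 fold change 1.03 ± 0.26, adjusted p = 0.0155), and for the earlier step it was 0.82, adjusted p = 1.76e-04, without P14 replicate 2. Kcnj2 did not pass in either step, with 30.7 ± 9.62 at P0, 27.8 ± 9.65 at P14 and 25 ± 4.09 at P28.

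Kcnj8 and Kcnj11 encode the pores of ATP-sensitive channels, which pair with the sulfonylurea receptors Abcc9 and Abcc8. Kcnj8, known from vascular mural cells, was at 24.4, 23.3, 27.7 and 24.1 at P0, 2.51, 0.486, 2.73 and 0.719 at P14, and 0.474, 0.279, 0.465 and 0.766 at P28. Every P0 library was far above every later one (log2 fold change −3.77 ± 0.34, adjusted p = 3.74e-07). Kcnj8 met the level minimum only because of its P0 libraries, so its fall is a description. Its partner Abcc9, itself on the list of mural markers, was at 37.3, 82.1, 88.4 and 48.4 at P0, 6.08, 1.09, 5.31 and 1.65 at P14, and 1.33, 0.802, 1.27 and 0.83 at P28 (log2 fold change −4.17 ± 0.42, adjusted p = 1.31e-06). Of the 6 pericyte and mural markers, 5 fell and 1 rose over the same step, and their part in the fall of Kcnj8 was not tested. Kcnj11, the neuronal pore, took the other direction, with 27.5 ± 2.99 at P0, 45.5 ± 2.56 at P14 and 56.5 ± 2.37 at P28 (log2 fold change 0.72 ± 0.093, adjusted p = 1.30e-05; its later rise was called in 14 of 25 alternative settings, adjusted p from 0.00408 to 0.401), and Abcc8 had 40.5 ± 7.15 at P0, 68.4 ± 13.4 at P14 and 89.2 ± 5.24 at P28 (log2 fold change 0.74 ± 0.14, adjusted p = 3.99e-04). Each pore lies beside its receptor: on GRCm38.p6, Kcnj8 (chr6:142564837-142571614) is 16.247 kb from Abcc9 on chromosome 6, and Kcnj11 (chr7:46097123-46100952) is 3.57 kb from Abcc8 on chromosome 7.

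The remaining Kir genes are known from glia. Kcnj10, the main potassium channel of astrocytes and oligodendrocytes, was at 18.3, 21.1, 21.3 and 18.4 at P0, 67.5, 18.2, 46.1 and 40 at P14, and 60.4, 50.9, 42 and 42.9 at P28. P14 replicate 2 lay just below the P0 libraries while the rest of P14 was above them (log2 fold change 0.96 ± 0.29, adjusted p = 0.00937; 1.32, adjusted p = 2.79e-06, without it). Kcnj16, its partner subunit, was at 0.843, 1.39, 1.34 and 1.79 at P0, 10.4, 3.92, 8.94 and 7.05 at P14, and 5.02, 5.44, 5.49 and 5.74 at P28 (log2 fold change 2.08 ± 0.25, adjusted p = 6.67e-06). Astrocyte and oligodendrocyte markers rose over the same step (5 of 8 and 8 of 8), and their part was not tested. Kcnj10 (chr1:172341210-172374085) lies 11.887 kb from Kcnj9 (chr1:172320508-172329322) with no protein-coding gene between, and the RefSeq promoter windows of both (GRCm38.p6, 250 bases before to 50 after the start, 5′ to 3′ on the gene's strand) are shown together with that of Kcnj8 as genes that moved in opposite directions. Capitals mark matches to the searched motifs GGGCGG (the GC box), TATAAA (the TATA box), the E-box forms CACGTG as well as CAGATG and likewise CAGCTG, and the cyclic AMP element TGACGTCA, on either strand. The windows are chr1:172329273-172329572 on the minus strand, chr1:172340960-172341259 on the plus strand and chr6:142571565-142571864 on the minus strand.
Kcnj9: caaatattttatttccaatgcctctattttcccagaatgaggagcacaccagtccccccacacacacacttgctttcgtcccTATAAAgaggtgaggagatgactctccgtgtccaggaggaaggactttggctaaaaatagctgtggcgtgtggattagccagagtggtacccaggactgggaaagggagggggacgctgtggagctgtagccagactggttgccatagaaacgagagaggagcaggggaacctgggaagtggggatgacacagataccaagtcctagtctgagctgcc
Kcnj10: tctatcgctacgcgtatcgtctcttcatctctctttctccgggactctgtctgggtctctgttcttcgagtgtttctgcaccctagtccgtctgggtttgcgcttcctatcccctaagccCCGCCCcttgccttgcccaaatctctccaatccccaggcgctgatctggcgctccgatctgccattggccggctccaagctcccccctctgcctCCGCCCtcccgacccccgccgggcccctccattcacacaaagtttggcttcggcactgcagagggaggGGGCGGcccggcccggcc
Kcnj8: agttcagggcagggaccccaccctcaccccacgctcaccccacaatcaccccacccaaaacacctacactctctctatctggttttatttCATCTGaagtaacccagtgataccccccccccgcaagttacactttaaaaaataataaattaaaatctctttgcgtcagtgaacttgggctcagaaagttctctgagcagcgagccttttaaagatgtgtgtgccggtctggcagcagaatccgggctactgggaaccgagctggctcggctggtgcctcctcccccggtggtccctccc
The Kcnj9 window held 5 CG dinucleotides and the letters TATAAA at base 83 of 300. The Kcnj10 window held 21 and 3 GC boxes, and the Kcnj8 window 9 and a CAGATG (on the other strand, and so printed as CATCTG). RefSeq windows were found for 53 of the 75 genes, and Kcnj9 was the 1 gene of these with a TATAAA (1.89%, against 14.2% of 27025 windows of all genes). A GC box was in 58.5% of the channel windows and 35.9% of all windows. The letters CAGCTG were in 26.4% and 16.1%, CAGATG in 15.1% and 17.2%, CACGTG in 5.66% and 7.24%, and TGACGTCA in 0% and 1.88%. The channel windows had a median of 12 CG dinucleotides and all windows a median of 7. The windows of all genes were taken without the level minimum that the channel genes had passed, so these values compare unlike sets.

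Tandem-pore channels, the leak channels that hold the resting potential, split between large rises and a large fall. Of 9 K2P genes, 6 rose from P0 to P14, 1 fell and 2 did not pass (8 and 1 without P14 replicate 2). Kcnk4, which encodes the mechanically and lipid-sensitive channel TRAAK, was at 1.57, 1.39, 1.41 and 1.94 at P0, 22.4, 22.7, 22.2 and 19.5 at P14, and 29.7, 25, 22.7 and 27.7 at P28. The P0 and P14 libraries were far apart (log2 fold change 3.42 ± 0.13, adjusted p = 1.24e-10), and P14 and P28 overlapped. Kcnk10 (TREK-2), of the same branch, was at 22.5, 29.3, 27.5 and 28.6 at P0, 7.57, 4.38, 9.48 and 7.12 at P14, and 5.68, 7.01, 4.94 and 5.52 at P28 (log2 fold change −1.89 ± 0.20, adjusted p = 1.58e-06). Its later libraries were all below those of P0, so these relatives moved in opposite directions. Kcnk2 (TREK-1), the remaining member of that branch, was at 50.3, 52.6, 55.5 and 45.4 at P0, 65.9, 55.3, 71.6 and 65.7 at P14, and 66.3, 66.3, 61.6 and 61.1 at P28. P14 overlapped P0, and the change was small (log2 fold change 0.34 ± 0.10, adjusted p = 0.00663).

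Kcnk1 (TWIK-1) was at 20.8, 18.1, 28.9 and 24.5 at P0, 103, 63.6, 105 and 103 at P14, and 116, 100.02, 98.5 and 93.6 at P28 (log2 fold change 1.99 ± 0.17, adjusted p = 2.84e-07), and its groups at P0 and P14 did not overlap. Within the K2P genes, per kilobase, Kcnk10 made up 21.9% ± 2.1 at P0, 2.82% ± 0.264 at P14 and 2.07% ± 0.322 at P28. Kcnk1 made up 20.5% ± 2.72 at P0, 41.3% ± 3.54 at P14 and 40.1% ± 1.28 at P28, and Kcnk4 1.9% ± 0.303 at P0, 13.6% ± 4.45 at P14 and 13.8% ± 1.08 at P28. Kcnk9 (TASK-3), an acid-sensitive leak channel, was at 5.42, 7.73, 9.82 and 12.9 at P0, 31.7, 0.973, 31.9 and 13.5 at P14, and 25.8, 21.2, 20 and 23.4 at P28. In P14 replicate 2 it lay below every P0 library and in the other P14 libraries above all of them. The outcome of the test rested on that library: the log2 fold change was 0.42 (adjusted p = 0.629) with it and 1.43, adjusted p = 5.88e-04, without it. Kcnk3 (TASK-1) likewise went from 0.21 (adjusted p = 0.176) to 0.29, adjusted p = 0.0433.

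Kcnk12, a silent relative of Kcnk13, was at 0.482, 1.31, 1.73 and 2.02 at P0, 4.71, 1.66, 5.61 and 2.23 at P14, and 10.2, 8.93, 5.96 and 6.57 at P28. It rose in both steps (log2 fold change 1.06 ± 0.36, adjusted p = 0.0177 and log2 fold change 1.16 ± 0.36, adjusted p = 0.0405). The later rise was 0.90, adjusted p = 0.0578, without P14 replicate 2, so that call was lost. The earlier call was also lost without P0 replicate 1, P14 replicate 1 or P14 replicate 3 (called in 20 of 24 alternative settings, adjusted p from 0.00219 to 0.0727; for the later step, called in 11 of 24 alternative settings, adjusted p from 0.0219 to 0.109). Kcnk13, a K2P channel known from microglia, was at 0.723, 0.875, 1.02 and 0.897 at P0, 5.67, 3.81, 4.59 and 4.82 at P14, and 5.45, 4.22, 3.84 and 2.65 at P28 (log2 fold change 1.91 ± 0.19, adjusted p = 1.29e-06). It passed the level minimum through P14 and P28 alone, so its rise is a description. All 6 microglial markers rose over the same step, and their part was not tested. Kcnk6 had 1.15 ± 0.207 at P0, 2.15 ± 0.46 at P14 and 3.34 ± 0.748 at P28. The promoter window of Kcnk4 (GRCm38.p6, chr19:6934466-6934765, minus strand), the gene with the highest rise in this group, held a GC box and 2 CAGCTG, in capitals.
Kcnk4: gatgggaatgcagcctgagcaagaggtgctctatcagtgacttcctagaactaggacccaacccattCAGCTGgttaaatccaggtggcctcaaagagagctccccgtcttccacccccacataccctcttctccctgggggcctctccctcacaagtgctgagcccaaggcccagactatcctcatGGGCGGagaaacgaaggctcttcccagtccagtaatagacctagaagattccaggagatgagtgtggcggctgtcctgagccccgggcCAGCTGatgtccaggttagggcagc

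The Kv1 channels, which sit along axons and at the axon initial segment and delay or damp firing, differed in makeup between the ages. Of 6 Kv1 genes, 4 rose from P0 to P14, 1 fell and 1 did not pass. Kcna2 was at 27.3, 31.1, 33.7 and 38.1 at P0, 215, 140.5, 211 and 172 at P14, and 301, 283, 286 and 275 at P28. No library of an age overlapped with the next age (log2 fold change 2.47 ± 0.13, adjusted p = 3.54e-09 and log2 fold change 0.65 ± 0.13, adjusted p = 0.0057). Kcna6 was at 84.1, 76.1, 80 and 82.6 at P0, 121, 92.9, 129.5 and 129.9 at P14, and 133, 144, 139 and 127 at P28, a smaller rise (log2 fold change 0.54 ± 0.10, adjusted p = 4.49e-04). Kcna1 was at 7.41, 8.9, 6.52 and 15 at P0, 41.7, 4.92, 40.5 and 23.6 at P14, and 61.1, 53.1, 47.8 and 53.3 at P28. In P14 replicate 2 it was below every P0 library, and its rise (log2 fold change 1.20 ± 0.51, adjusted p = 0.0486) was 1.87, adjusted p = 9.44e-06, without that library. Kcna1 lies close to the threshold (called in 9 of 25 alternative settings, adjusted p from 9.44e-06 to 0.142).

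Kcna3, better known from lymphocytes and microglia, was at 3.37, 10.1, 11.8 and 10.9 at P0, 5.36, 0.143, 4.97 and 1.87 at P14, and 6.96, 5.51, 4.65 and 6.29 at P28. The groups at P0 and P14 overlapped through P0 replicate 1, the lowest of its age. Its fall (log2 fold change −1.72 ± 0.58, adjusted p = 0.0177) was −1.04, adjusted p = 0.0253, without P14 replicate 2. It was not called by edgeR or DESeq2, on the deposited values without a common scale, or without P0 replicate 3 (called in 21 of 25 alternative settings, adjusted p from 0.00631 to 0.0628). Kcna5 had 7.28 ± 3.11 at P0, 4.28 ± 1.87 at P14 and 4.14 ± 0.337 at P28 and did not pass (log2 fold change −0.70, adjusted p = 0.0604). Kcna4, an inactivating Kv1 subunit, rose, with 7 ± 1.66 at P0, 23 ± 7.09 at P14 and 27.3 ± 2.41 at P28 (log2 fold change 1.63 ± 0.21, adjusted p = 1.31e-05). Per kilobase, the Kv1 genes summed to 32.8 ± 3.06 at P0, 84.6 ± 17.6 at P14 and 122 ± 4.18 at P28. Kcna6 led that sum at P0 with a share of 42.5% ± 4.68 at P0, 24.4% ± 2.91 at P14 and 19.1% ± 0.952 at P28, and Kcna2 led later, with 28.6% ± 1.78 at P0, 63.4% ± 2.41 at P14 and 67.8% ± 0.886 at P28.

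Kcna2 (chr3:107090883-107115005) and Kcna3 (chr3:107036162-107038129) lie 52.753 kb apart on chromosome 3 with no protein-coding gene between, and they moved in opposite directions from P0 to P14. Their promoter windows (chr3:107101317-107101616 and chr3:107035912-107036211, both plus strand) are shown because of that contrast, with matches to the same motifs in capitals.
Kcna2: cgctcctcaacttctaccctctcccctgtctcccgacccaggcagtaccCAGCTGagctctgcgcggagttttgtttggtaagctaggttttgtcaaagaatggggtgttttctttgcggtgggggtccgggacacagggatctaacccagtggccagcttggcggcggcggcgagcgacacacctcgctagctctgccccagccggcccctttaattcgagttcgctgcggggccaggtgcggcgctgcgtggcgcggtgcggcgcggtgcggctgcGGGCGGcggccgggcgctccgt
Kcna3: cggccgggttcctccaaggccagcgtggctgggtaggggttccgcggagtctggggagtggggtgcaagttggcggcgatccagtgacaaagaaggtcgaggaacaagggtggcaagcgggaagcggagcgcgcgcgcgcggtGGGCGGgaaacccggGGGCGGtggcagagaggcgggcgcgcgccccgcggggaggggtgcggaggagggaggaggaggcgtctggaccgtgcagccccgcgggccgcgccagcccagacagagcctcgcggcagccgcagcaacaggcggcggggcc
The windows held 31 and 37 CG dinucleotides, against the median of 12 for channel windows, and the Kcna3 window held 2 GC boxes. The Kcna2 window held a GC box and a CAGCTG, and it lies inside the annotated span of the gene, at a start downstream of the first. On chromosome 6, Kcna5, Kcna1 and Kcna6 follow each other at distances of 100.907 and 62.526 kb, with log2 fold changes from P0 to P14 of −0.70, 1.20 and 0.54.

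Kv beta subunits, cytoplasmic partners of Kv1, all 3 rose from P0 to P14. Kcnab2 was at 37.5, 31, 40.8 and 51.7 at P0, 245, 154, 234 and 215 at P14, and 319, 287, 279 and 267 at P28 (log2 fold change 2.38 ± 0.16, adjusted p = 2.72e-08). Kcnab1 was at 22.6, 22.6, 24.5 and 25.3 at P0, 58.3, 47.2, 84.6 and 67.7 at P14, and 74.9, 75.2, 76.3 and 70.8 at P28 (log2 fold change 1.39 ± 0.14, adjusted p = 1.24e-06). Kcnab3 was at 12.3, 8.75, 8.02 and 10.9 at P0, 31.7, 30.7, 24.7 and 29.7 at P14, and 64.5, 59.9, 60.7 and 53.4 at P28, and it rose in both steps with no overlap (log2 fold change 1.51 ± 0.14, adjusted p = 3.88e-07 and log2 fold change 1.02 ± 0.14, adjusted p = 4.26e-04). Per kilobase, Kcnab2 made up 51.9% ± 4.26 at P0, 67% ± 3.12 at P14 and 64.4% ± 1.02 at P28 of the sum of the 3. The span of Kcnab2 overlaps that of Nphp4, and reads of the 2 genes can be told apart only if strand was used in counting, a step not given in the sources used here.

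Kv2 channels carry the delayed rectifier current of the soma and proximal dendrites. Kcnb2 was at 18.7, 27.8, 33.6 and 27 at P0, 30.3, 18.3, 34.5 and 34.7 at P14, and 41.8, 44.5, 45 and 44.5 at P28. From P0 to P14 its groups overlapped (log2 fold change 0.12, adjusted p = 0.602; 0.33, adjusted p = 0.0498, without P14 replicate 2). Its later rise (log2 fold change 0.61 ± 0.20, adjusted p = 0.0496) was 0.40, adjusted p = 0.0518, without that library (called in 8 of 25 alternative settings, adjusted p from 0.0267 to 0.138).

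The silent subunits (Kcnf1, Kcng1 to Kcng4, Kcns1 to Kcns3 and Kcnv1) form no channel alone and modify Kv2 when they assemble with it. Of these 9, 8 rose from P0 to P14 and none fell; 2 of the 8, Kcng2 and Kcng4, passed the level minimum through the later ages alone. Kcnf1 was at 42, 38.6, 42.2 and 53 at P0, 264, 159, 292 and 271 at P14, and 372, 307, 289 and 302 at P28, with no overlap of P0 and P14 (log2 fold change 2.45 ± 0.17, adjusted p = 3.53e-08). Kcnv1 had 35.5 ± 6.81 at P0, 127 ± 52.5 at P14 and 152 ± 22.6 at P28 (log2 fold change 1.70 ± 0.30, adjusted p = 2.30e-04). Kcng4 was near nothing at P0 and rose in both steps, at 0.0602, 0, 0 and 0.15 at P0, 2.32, 0.858, 1.86 and 2.19 at P14, and 3.69, 4.47, 3.84 and 3.35 at P28. Its P0 values are 0 to a few reads, and it passed the level minimum through P14 and P28 alone, so its earlier rise is a description and no fold is given (adjusted p = 2.58e-06 for P14 against P0 and 0.00994 for P28 against P14). Kcns2 was at 6.5, 7.66, 8.25 and 9.5 at P0, 30.6, 6.01, 31.5 and 26.3 at P14, and 39.8, 37.2, 32.1 and 27.2 at P28. P14 replicate 2 lay below every P0 library there (log2 fold change 1.28 ± 0.40, adjusted p = 0.0112; 1.83, adjusted p = 2.10e-08, without it). Kcng3, at 0.105 to 1.66 scaled CPM in all libraries, was the member of this group that did not pass.

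Kv3 channels open and close fast and let neurons fire at high rates. Kcnc1, Kcnc2 and Kcnc4 all rose from P14 to P28, with no overlap between the libraries of the 2 ages in any of them. The step had a background of 9.23% of genes called higher and 14.2% without overlap. Kcnc1 was at 87.9, 87.6, 75.4 and 90.7 at P0, 98.7, 69.5, 91.3 and 87 at P14, and 140.1, 146, 132 and 138 at P28. From P0 to P14 it did not pass (log2 fold change 0.012, adjusted p = 0.923), and it then rose (log2 fold change 0.69 ± 0.11, adjusted p = 9.70e-04).

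Kcnc2 was at 25.1, 31.7, 18.6 and 23.7 at P0, 62.2, 74.7, 67.6 and 83.5 at P14, and 107, 99.7, 92.9 and 103 at P28, and most of its change came early (log2 fold change 1.54 ± 0.14, adjusted p = 4.89e-07 and log2 fold change 0.49 ± 0.14, adjusted p = 0.0307). The later call was lost in some settings (called in 17 of 25 alternative settings, adjusted p from 0.0086 to 0.143). Kcnc4 was at 14.6, 15.5, 16.3 and 18.5 at P0, 79.2, 35.1, 88.8 and 78.4 at P14, and 113, 114, 105 and 98.8 at P28. It also rose in the earlier step (log2 fold change 2.00 ± 0.23, adjusted p = 3.45e-06), and its later rise was close to the threshold (log2 fold change 0.69 ± 0.23, adjusted p = 0.0488; 0.39, adjusted p = 0.00775, without P14 replicate 2). It was called in 6 of 25 alternative settings, adjusted p from 0.00775 to 0.123. Kv3 channels are best known from fast-spiking inhibitory neurons. The summed inhibitory markers were between 225 and 362 at P14 and between 298 and 390.2 at P28, below their P0 range at both ages. Of 10 such markers, 1 (Pvalb) rose from P14 to P28 and 0 fell. The part of such neurons was not tested.

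The Kv4 channels of dendrites carry the A-type current, and KChIP subunits go with them. Of 3 Kv4 genes 1 rose and 1 fell from P0 to P14, and of 4 KChIP genes 3 rose and 1 fell, where both falls (Kcnd3 and Kcnip1) change sign on the deposited values without a common scale. Kcnd2 was at 67.3, 84.8, 89.3 and 105 at P0, 98.1, 77.7, 116 and 112 at P14, and 106, 105, 113 and 95.4 at P28 and passed in neither step. Without P14 replicate 2 it rose from P0 to P14 (0.34, adjusted p = 0.0173) and was then the 1 Kv4 gene that rose, with 0 that fell. Kcnd3 was at 106, 107, 102 and 114 at P0, 94.8, 58.7, 98.3 and 85.2 at P14, and 141, 120.5, 125 and 101 at P28. It was lower at P14 (log2 fold change −0.37 ± 0.15, adjusted p = 0.0383), a call that did not hold without P14 replicate 2, −0.21, adjusted p = 0.0693, and that turned to 0.11 (adjusted p = 0.521) on the deposited values without a common scale. It was called in 11 of 25 alternative settings, adjusted p from 0.0189 to 0.521. It then rose to P28 (log2 fold change 0.55 ± 0.15, adjusted p = 0.0225; called in 20 of 25 alternative settings, adjusted p from 0.00603 to 0.102). Kcnd1 was at 20.9, 13.7, 15.1 and 14.7 at P0, 18.4, 28.9, 19.4 and 20.9 at P14, and 18.5, 21.2, 20.9 and 21.4 at P28, where P14 replicate 2 was the highest library (log2 fold change 0.43 ± 0.16, adjusted p = 0.0275; 0.29, adjusted p = 0.0613, without it; called in 19 of 25 alternative settings, adjusted p from 1.66e-04 to 0.0815). Per kilobase, the 3 Kv4 genes summed to 34.8 ± 3.01 at P0, 35.5 ± 4.84 at P14 and 41.2 ± 3.23 at P28.

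KChIP genes encode calcium-binding proteins that bring Kv4 to the surface and shape its inactivation. Their sum was 42 ± 3.41 at P0, 133 ± 7.66 at P14 and 147 ± 6.22 at P28. Kcnip2 was at 44.4, 34.1, 32.8 and 41.5 at P0, 162, 201, 157 and 189 at P14, and 191, 157, 160.3 and 174 at P28, with every later library above every P0 library (log2 fold change 2.20 ± 0.12, adjusted p = 3.11e-09). Kcnip4 had 14.6 ± 2.4 at P0, 60.6 ± 4.22 at P14 and 52.4 ± 3.39 at P28 (log2 fold change 2.03 ± 0.11, adjusted p = 3.86e-09). Kcnip3 was at 51.9, 47.1, 44 and 41.7 at P0, 115, 92.3, 119.7 and 130.2 at P14, and 171, 171, 175 and 173 at P28 and rose in both steps (log2 fold change 1.29 ± 0.11, adjusted p = 1.50e-07 and log2 fold change 0.60 ± 0.11, adjusted p = 0.00216). Kcnip1, which is known from interneurons, ran against the others, at 24.4, 20.6, 20.8 and 26.5 at P0, 20.9, 13.5, 17.7 and 17.1 at P14, and 15.2, 14.9, 13.4 and 12.8 at P28. It was lower at P14 (log2 fold change −0.41 ± 0.14, adjusted p = 0.0167), though on the deposited values without a common scale the sign turned (0.057, adjusted p = 0.723). It was also lost without P0 replicate 4 (called in 22 of 25 alternative settings, adjusted p from 0.00623 to 0.723). Its share of the KChIP sum was 13.4% ± 0.93 at P0, 3.2% ± 0.67 at P14 and 2.34% ± 0.203 at P28. The membrane partners of Kv4 outside the naming rule were Dpp10, which rose (log2 fold change 0.93 ± 0.10, adjusted p = 2.50e-06), and Dpp6, which did not pass (log2 fold change 0.092, adjusted p = 0.533).

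**Figure D3:**
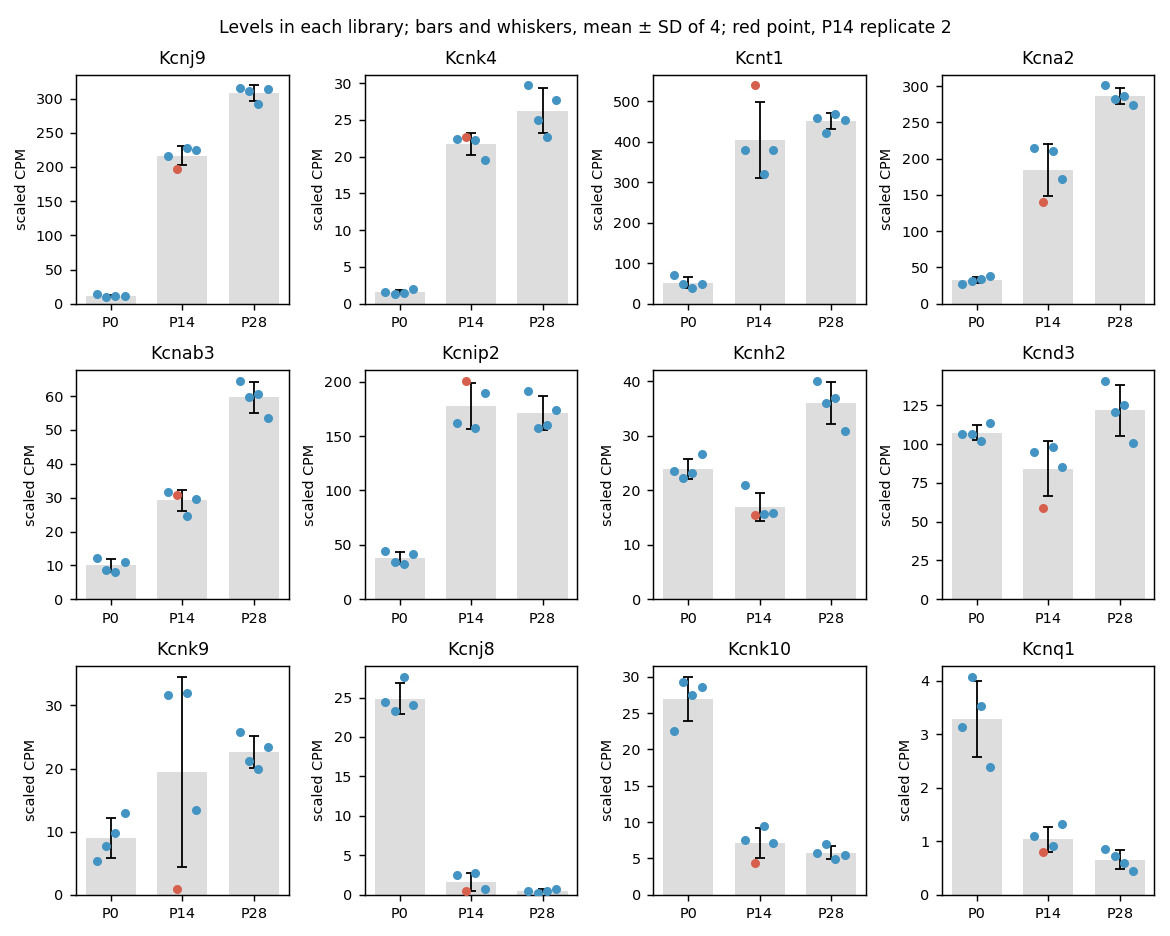
Scaled CPM on a linear axis from 0 for 12 channel genes, with the 4 libraries of an age as points, their mean ± SD as bars and whiskers, and P14 replicate 2 in red. Kcnj9, Kcna2 and Kcnab3 climb at both steps, and Kcnk4, Kcnt1 and Kcnip2 climb by P14, with no call from P14 to P28. Kcnh2 and Kcnd3 dip at P14, though on the deposited values without a common scale the fall from P0 to P14 is called for neither. Kcnj8, Kcnk10 and Kcnq1 drop, and for Kcnk9 the red point lies far below the other P14 libraries.

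The Kcnh genes (EAG, ERG and ELK channels) had 6 that rose and 2 that fell from P0 to P14. Kcnh1 (EAG1) was at 17.4, 13.3, 18 and 29.5 at P0, 170.2, 67.8, 173 and 133 at P14, and 199, 176, 182 and 183 at P28 (log2 fold change 2.74 ± 0.27, adjusted p = 1.13e-06). Kcnh3, an ELK channel of the forebrain, had 36.1 ± 4.58 at P0, 198 ± 15.3 at P14 and 239 ± 14.3 at P28 (log2 fold change 2.45 ± 0.10, adjusted p = 1.82e-10). Kcnh8, of the same ELK branch, fell, at 4.58, 4.59, 6.44 and 3.14 at P0, 0.608, 0.601, 0.872 and 0.827 at P14, and 0.663, 0.767, 0.929 and 0.67 at P28 (log2 fold change −2.05 ± 0.19, adjusted p = 6.04e-07). It passed the level minimum through P0 alone, so its fall is a description. Kcnh2 (ERG1), the channel of the cardiac repolarising current, was at 23.5, 22.3, 23.2 and 26.6 at P0, 20.9, 15.4, 15.5 and 15.9 at P14, and 40, 36, 36.8 and 30.8 at P28. It was lowest at P14, with no overlap on either side (log2 fold change −0.49 ± 0.12, adjusted p = 0.0027 and log2 fold change 1.07 ± 0.12, adjusted p = 1.41e-04). The fall of Kcnh2 was not called on the deposited values without a common scale. The related Kcnh7 (ERG3) rose by P14, with 64.6 ± 11.3 at P0, 152 ± 27.6 at P14 and 174 ± 14.6 at P28 (log2 fold change 1.22 ± 0.15, adjusted p = 5.95e-06). Kcnh4 rose with an adjusted p of 9.28e-04. Kcnh5 rose with an adjusted p of 0.0368 (called in 17 of 25 alternative settings, adjusted p from 1.60e-05 to 0.117) and Kcnh6 with 0.0392 (called in 13 of 24 alternative settings, adjusted p from 7.04e-04 to 0.135).

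Kv7 genes encode the M-current, which acetylcholine closes, and Kcnq3 is one of its main subunits in the cortex. Kcnq3 was at 146, 157, 179.6 and 184 at P0, 259, 181, 282 and 251 at P14, and 236, 225, 229 and 218 at P28 and rose in the earlier step (log2 fold change 0.53 ± 0.13, adjusted p = 0.00206). Kcnq5 was at 36.2, 42, 49.4 and 46.3 at P0, 117, 69, 131 and 116 at P14, and 136, 135, 131 and 130.1 at P28, with no overlap of P0 and P14 (log2 fold change 1.28 ± 0.17, adjusted p = 1.40e-05).

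Kcnq1, the cardiac and epithelial member, had 3.29 ± 0.712 at P0, 1.04 ± 0.233 at P14 and 0.656 ± 0.175 at P28 and fell (log2 fold change −1.29 ± 0.19, adjusted p = 3.67e-05). Kcnq1 met the level minimum only because of its P0 libraries, so its fall is a description. Its span overlaps the antisense RNA Kcnq1ot1, and without the counted strand the reads of the 2 cannot be told apart. The Kcne genes, small partners of Kcnq1 and other Kv channels, were near the level minimum, and Kcne2 did not pass. Kcne4 was at 2.11, 3.14, 2.91 and 1.79 at P0, 0.494, 0.429, 0.796 and 0.647 at P14, and 0.474, 0.488, 0.338 and 0.191 at P28 (log2 fold change −1.44 ± 0.20, adjusted p = 2.15e-05). Kcne4 passed the level minimum through P0 alone, so its fall is a description.

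Among channels opened by ions inside the cell, the sodium-activated channels rose from P0 to P14. Kcnt1 (Slack) was at 70.5, 48.9, 39.1 and 49.6 at P0, 381, 539, 319 and 379 at P14, and 459, 422, 469 and 455 at P28, with no P14 library near P0 (log2 fold change 2.95 ± 0.17, adjusted p = 6.38e-09). P14 replicate 2 was the highest library here. Kcnt2 (Slick) was at 17.5, 18.7, 16.6 and 17.3 at P0, 77.5, 98.9, 90 and 112 at P14, and 57.4, 72.9, 87.9 and 80.7 at P28 (log2 fold change 2.39 ± 0.14, adjusted p = 5.16e-09). Neither passed from P14 to P28. Their summed level per kilobase was 11.9 ± 2.29 at P0, 85.3 ± 16.8 at P14 and 89.8 ± 4.55 at P28.

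The calcium-activated channels showed less. Kcnma1, the BK pore, was at 33.2, 58.1, 64.4 and 73.7 at P0, 103, 20.5, 98.8 and 56.8 at P14, and 90.5, 90.1, 91.2 and 96.2 at P28. P14 replicate 2 was below every P0 library and the groups overlapped (log2 fold change 0.093, adjusted p = 0.849; 0.59, adjusted p = 0.0376, without it). Kcnmb4, the neuronal BK beta subunit, was at 7.83, 7.07, 6.29 and 8.45 at P0, 10.3, 14.5, 12.9 and 11.1 at P14, and 7.96, 9.11, 9.12 and 8.07 at P28, higher at P14 than on both sides (log2 fold change 0.68 ± 0.14, adjusted p = 7.33e-04 and log2 fold change −0.48 ± 0.14, adjusted p = 0.0328). The later fall was called in 17 of 25 alternative settings, adjusted p from 0.00372 to 0.1. The spans of Kcnmb4 and of Kcnd3 each overlap antisense genes, from which their reads cannot be told apart without the counted strand. Kcnmb2, a beta subunit that inactivates BK, fell, at 4.7, 6.49, 7.31 and 7.4 at P0, 1.44, 0.83, 2.12 and 1.47 at P14, and 0.805, 1.05, 0.591 and 0.83 at P28 (log2 fold change −1.85 ± 0.22, adjusted p = 5.08e-06). Of the SK genes, which carry the medium afterhyperpolarisation, Kcnn2 rose, at 18.2, 22.5, 17 and 20.9 at P0, 36.7, 68.2, 40.3 and 37.6 at P14, and 44.3, 49.3, 42.5 and 43.7 at P28 (log2 fold change 1.16 ± 0.17, adjusted p = 4.69e-05). Kcnn3 was at 31.6, 45.1, 37.6 and 42.7 at P0, 40.1, 30.2, 38.2 and 36.4 at P14, and 36.7, 38.7, 38.3 and 36.3 at P28, and Kcnn1 had 20.1 ± 1 at P0, 20.3 ± 3.13 at P14 and 19.9 ± 1.52 at P28. Neither of these passed in any step, though on the deposited values without a common scale both were called higher from P0 to P14 (log2 fold change 0.37 for Kcnn3 and 0.47 for Kcnn1). Kcnu1, the Slo3 gene of sperm, had 5.91 ± 1.88 at P0, 5.18 ± 1.93 at P14 and 3.98 ± 0.9 at P28.

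The ratio of 2 subunits was taken within each library, on scaled CPM + 0.5, and 14 pairs were compared in both steps by exact permutation tests, two-sided, on the log2 ratio, 28 tests in all. With 4 libraries against 4 the smallest p is 0.0286, which 14 of the tests gave (11 for P14 against P0 and 3 for P28 against P14). After adjustment over the 28 tests these stood at 0.0571, so 0 passed. The log2 ratio of Kcnj9 to Kcnj3 went from −1.61 ± 0.22 to 0.62 ± 0.14 between P0 and P14 (mean ± SD, n = 4; exact permutation p = 0.0286, adjusted p = 0.0571). That of Kcna6 to Kcna2 went from 1.31 ± 0.21 to −0.63 ± 0.18. In these 2 pairs the libraries of the 2 ages did not overlap.

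Kcnd3 to Kcnd2 separated in both steps and turned back: the log2 ratio went from 0.32 ± 0.24 to −0.27 ± 0.17 between P0 and P14 and from −0.27 ± 0.17 to 0.21 ± 0.14 between P14 and P28. Kcnc2 to Kcnc1 went from −1.79 ± 0.24 to −0.26 ± 0.35 in the earlier step, Kcnn2 to Kcnn3 from −0.98 ± 0.14 to 0.29 ± 0.59, and Kcnk2 to Kcnk1 from 1.14 ± 0.30 to −0.51 ± 0.21. For Kcnn2 to Kcnn3, P14 replicate 2 was at 1.16 and the other P14 libraries were between −0.13 and 0.08. Kcnt2 to Kcnt1 overlapped between P0 and P14 (exact permutation p = 0.0857, adjusted p = 0.133), as did Kcnj6 to Kcnj3 (exact permutation p = 0.429, adjusted p = 0.5) and Kcnmb4 to Kcnma1 (exact permutation p = 0.543, adjusted p = 0.563).

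**Figure D4:**
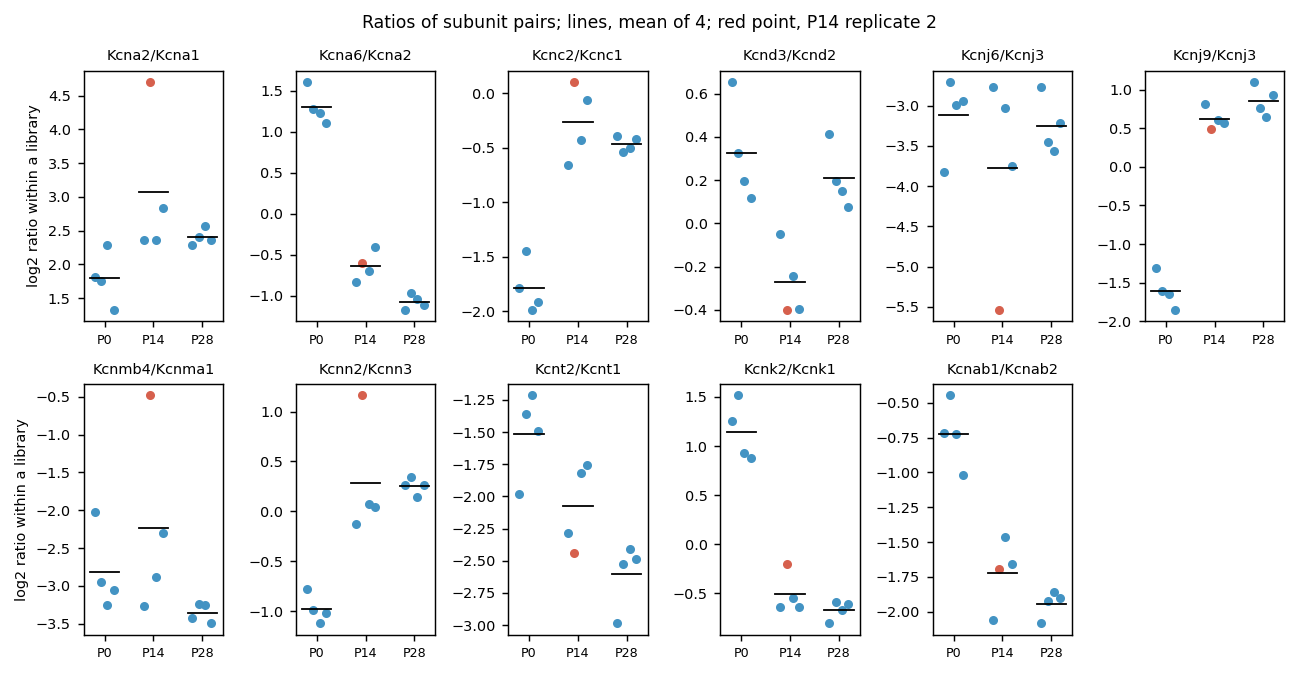
Log2 ratio of 2 subunit genes within a library for 11 of the fixed pairs, with the 4 libraries of an age as points. Kcnj9/Kcnj3 lies higher at P14 than at P0 and Kcna6/Kcna2 lies lower, in every library, and Kcnd3/Kcnd2 is lowest at P14.

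Genes that work with these channels but carry other names were taken from a list of 34, of which 32 were tested. From P0 to P14, 17 rose and 6 fell (22 and 6 without P14 replicate 2), against the 34.4% and 34.5% of all genes. From P14 to P28, 5 rose and 1 fell, against 9.23% and 9.1% of all genes. Of the 10 genes that cluster Kv1 and Kv7 channels on the axon, 6 rose and 3 fell from P0 to P14. The share that fell was near that of all genes. Lgi1, a secreted ligand of the Kv1-linked ADAM receptors, had 32.6 ± 4.56 at P0, 113 ± 14.2 at P14 and 148 ± 8.18 at P28 (log2 fold change 1.78 ± 0.12, adjusted p = 1.63e-08), and Sptbn4, the spectrin of the axon initial segment, had 80.7 ± 10.4 at P0, 262 ± 81.4 at P14 and 317 ± 20.9 at P28 (log2 fold change 1.66 ± 0.17, adjusted p = 1.11e-06). Cntn2, an adhesion molecule of juxtaparanodes that is also abundant on growing axons, fell, with 1137 ± 52.1 at P0, 102 ± 15.9 at P14 and 173 ± 5.8 at P28 (log2 fold change −3.48 ± 0.11, adjusted p = 2.21e-11). Ank3, the ankyrin that anchors channels at the initial segment, also fell (log2 fold change −0.71 ± 0.11, adjusted p = 6.72e-05).

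Amigo1, the Kv2 partner, rose in both steps, with 60 ± 4.16 at P0, 119 ± 32.2 at P14 and 198 ± 1.9 at P28 (log2 fold change 0.93 ± 0.17, adjusted p = 2.90e-04 and log2 fold change 0.78 ± 0.17, adjusted p = 0.008). Vapa, which ties Kv2 to the endoplasmic reticulum, fell from P14 to P28 (log2 fold change −0.41 ± 0.10, adjusted p = 0.0118). Of the 5 genes for HCN channels, the depolarising counterpart of these currents, and their partner, 3 rose and 2 fell from P0 to P14. Of all genes, 34.4% rose and 34.5% fell. The summed level of the 5 was between 147 and 205 at P0 and between 229 and 282 at P14. Hcn4 fell, with 45.7 ± 10.6 at P0, 3.87 ± 2.33 at P14 and 5.4 ± 1.15 at P28 (log2 fold change −3.59 ± 0.39, adjusted p = 2.48e-06). Pex5l, the trafficking partner of HCN, rose, with 15.6 ± 3.26 at P0, 121 ± 11.6 at P14 and 135 ± 6.59 at P28 (log2 fold change 2.93 ± 0.13, adjusted p = 5.40e-10). Of 8 potassium pump and transporter genes, 4 rose and 0 fell from P0 to P14, against 34.4% and 34.5% of all genes. Slc12a5, the potassium-chloride exporter KCC2, had 115 ± 13.4 at P0, 421 ± 12.3 at P14 and 542 ± 49 at P28 (log2 fold change 1.87 ± 0.10, adjusted p = 2.34e-09).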

How the data were processed

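Polyadenylated RNA of Cre-tagged cortical nuclei was sequenced in 12 libraries with a stranded kit, per the labels. The deposited signal is a normalized count: the authors divided reads by a library factor with DESeq2, on build mm10, per the submitters' processing notes, in 1 table per age. The aligner, the counter, the annotation and the strand setting were steps not given in the sources used here. All values, to 0.05 reads, were whole multiples of a library step, and reads were recovered that way.

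Each column was divided by its total over 25834 shared genes and scaled by a median-of-ratios factor over all libraries (0.936 to 1.04). Genes at 1 CPM in at least 4 libraries were kept (15713). On log2(scaled CPM + 0.5), limma 3.58.1 (R 4.3.3; trend, robust, age as a factor, 12 libraries, two-sided) was fitted, with p adjusted by Benjamini and Hochberg and 0.05 as the threshold. Fold changes on this scale understate changes of low genes; ± after one is its standard error, and ± after a mean is the SD of 4 libraries. edgeR 4.0.16 and DESeq2 1.42.0 were alternatives, on recovered reads. The code was tested on simulated data. Gene positions and promoters are from RefSeq GRCm38.p6; lengths are of the longest GENCODE vM1 transcript (74 of 75 genes; Kcnj11 is left out of Kir sums). The spans of 33 of the 75 genes overlap another gene. Values in every library are given for the largest mover of each subfamily, direction and step, for members of the fixed pairs and for those against their subfamily; other genes were named after their values were seen. Some of the genes are counted but not reported here by name, and figures leave them out. Members and lists were chosen with earlier results of these data known. The labels do not say that libraries of an age came from separate litters, so p-values measure the spread between these samples.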

Additional observations from a re-analysis of the deposited data

Results flagged for a closer look

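For each of 71 genes and 3 ages, on log2(scaled CPM + 0.5), the gap of the farthest library to its neighbour was set against the range of the 4 libraries and read against Dixon's 95% critical value. Of 213 such groups 16 passed it, where chance alone gives about 1 in 20, or 10.65. In 9 of the 16 the library was P14 replicate 2. It was the lowest of its age for Kcnc4 (0.865), Kcnf1 (0.836), Kcng1 (0.859), Kcnj12 (0.870), Kcnk1 (0.956), Kcns2 (0.888) and Kcnv1 (0.859), and the highest for Kcnn2 (0.846) and Kcnu1 (0.902). In P0 replicate 1 this was so for Kcna3 (0.875, lowest) and Kcnk6 (0.935, lowest). In P14 replicate 1 this was so for Kcnh2 (0.901, highest) and Kcnh6 (0.867, highest). In P14 replicate 4 this was so for Kcnk4 (0.869, lowest). In P28 replicate 1 this was so for Kcnb2 (0.847, lowest) and Kcnd1 (0.835, lowest). P0 replicate 1 is a merged library by its label. What these libraries have in common beyond the values was not tested.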

How the results depend on the processing

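Of the 60 calls from P0 to P14, 49 were kept in every alternative setting that tested the gene (25, or 24 for the 15 genes under a mean of 5 CPM); 10 of 18 were kept from P14 to P28 and 60 of 60 from P0 to P28. Over all genes and settings, 5246 values stayed on their side of the threshold with their sign, 80 values of 22 genes with no call in either setting changed sign (at most 0.31 from 0), 85 became called, 165 lost a call and 4 that were called in 1 of the 2 settings changed sign. Those 4 were on the deposited values without a common scale, from P0 to P14: Kcnd3 at 0.11 (adjusted p = 0.521), Kcnip1 at 0.057 (0.723), Kcnn1 at 0.47 (0.00338) and Kcnn3 at 0.37 (0.0143); that setting moves the median of all genes by 0.47, −0.20 and 0.27 in the 3 comparisons. The number of lower calls from P0 to P14 was 7 with a mean of 5 CPM as the minimum, which tests 60 genes, and 7 on the deposited values. From P0 to P28 it was 4 with the minimum of 5 CPM. From P14 to P28 the higher calls were 10 on the deposited values and 11 to 19 without 1 library in turn. The lower calls, 1 in the main analysis (Kcnmb4), were 0 with no filter, 7 on the deposited values, 2 with edgeR, 3 with DESeq2, 0 with the replicate block, 0 without both merged libraries and 0 to 6 without 1 library in turn. Their cause was not tested. The replicate block gave 47 higher and 12 lower calls from P0 to P14, 13 and 0 from P14 to P28, and 52 and 9 from P0 to P28. Same-numbered libraries correlated at −0.51 to 0.36 in P14 against P0, −0.11 to 0.30 in P28 against P14 and −0.24 to −0.085 in P28 against P0. In these comparisons 0, 2 and 0 of 4 correlated best with their own number. The labels do not say that the numbers pair animals, and such correlations cannot show whether they do. The ratio tests cannot pass with 3 libraries against 4, where the smallest p is 0.0571. Levels under 0.0858 to 0.236 scaled CPM rest on 3 reads or fewer, which limits Kcng4 at P0.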
